A study of Mus musculus with 25 samples.

Results

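The comparison of Smarca4 knockout with wild type mouse embryos at the early 2-cell stage took in 3 libraries of each genotype. It covered the 9500 genes, of 24412 gene symbols in the files, that reached an FPKM of 1 in 3 or more of these 6 libraries. FPKM is the number of sequenced fragments of a gene, divided by the transcript length and by the size of the library. At the edge of that filter, 566 genes reached an FPKM of 1 in exactly 3 libraries and were kept, and 662 reached it in 2 libraries and were not. Only 57 genes (0.6%) passed through 1 genotype alone, 44 (0.463%) through the knockout and 13 (0.137%) through the wild type, and such genes had to differ.

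The embryos were made by intracytoplasmic sperm injection of oocytes from superovulated females aged 8 to 12 weeks, which received 7 IU of pregnant mare serum gonadotropin and, 48 h later, 5 IU of human chorionic gonadotropin. Those females were either B6D2F1 hybrids or C57BL/6 animals carrying Smarca4flox/flox and Gdf9-Cre, a Cre driver of the growing oocyte, so the deletion is maternal. The labels used here do not state the strain behind each library, so strain and genotype cannot be told apart. The libraries were stranded, made from total RNA after removal of ribosomal RNA, and sequenced as pairs of 150 bp reads. The series holds 25 such libraries in all, from MII oocytes and PN3 zygotes to early and late 2-cell embryos. Whether the replicates are embryos of different females is not stated, and p-values below therefore reflect only how far these libraries differ, which may be technical.

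Smarca4 (also called Brg1) is the motor subunit of the BAF complexes, which use ATP to slide and evict nucleosomes and so open DNA to transcription factors. The mouse embryo starts out with RNA stored in the oocyte and begins to transcribe its own genome between the zygote and the late 2-cell stage. In that window a set of multicopy genes, among them the Zscan4, Tdpoz and Usp17l families, is switched on for a short time, while stored RNA is degraded. The comparison asks how RNA levels differ at that point in embryos from oocytes without Smarca4.

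Some libraries stood apart. Wild type replicate 2 had 9345 genes above 0, against 13793 and 15560 in the other wild type libraries and 14026 to 15550 in the knockout libraries. Of the tested genes, 1249 (13.2%) were listed at 0 in it, compared with 8 to 83 in each of the other libraries. Its correlation with the other 5 libraries across genes was 0.876 to 0.887, and that among the rest was 0.939 to 0.970. Knockout replicate 3 correlated most with wild type replicate 3 (0.968), more than with knockout replicates 1 (0.952) and 2 (0.952). Both libraries numbered 3 also held the most 45S ribosomal precursor RNA (Rn45s), at 7357 and 10915 scaled FPKM, against 812 to 2595 in the other 4. The files give no read counts, so the depth of each library is unknown. The median SD between replicates, on the log2 scale, was 0.37 in wild type and 0.24 in knockout early 2-cell embryos, and 0.06 to 0.08 at MII.

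Smarca4 (chromosome 9, 21616106 to 21704230, RefSeq GRCm38.p6) was the only gene that passed the test. Its level was 31.4, 34.9 and 18.98 scaled FPKM in wild type replicates 1, 2 and 3, and 1.82, 0.767 and 5.12 in knockout replicates 1, 2 and 3. The groups did not overlap, and knockout replicate 3 kept the highest knockout level while wild type replicate 3 had the lowest wild type level. Smarca4 fell by 3.19 on the log2 scale (SE 0.38, adjusted p = 0.0147, limma). Values here and below are FPKM after scaling of the libraries to each other, and a difference is knockout minus wild type in log2(scaled FPKM + 1), which understates the change of low genes. The call was lost, at differences of -2.78 to -3.12, when any of 4 libraries was left out: adjusted p was 0.0675 without wild type replicate 1, 0.0828 without wild type replicate 2, 0.149 without knockout replicate 1 and 0.0567 without knockout replicate 2. In the other stages Smarca4 was 0.219 and 0.221 in the knockout MII oocytes, 0.222 to 0.448 in the knockout zygotes and 21.0 to 22.5 in the knockout late 2-cell embryos. Wild type levels were 26.0 to 30.5, 29.6 to 33.2 and 48.5 to 90.4 at the same stages. The knockout early 2-cell libraries thus lay between the near absence at PN3 and the partial level at the late 2-cell stage.

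**Figure D1:**
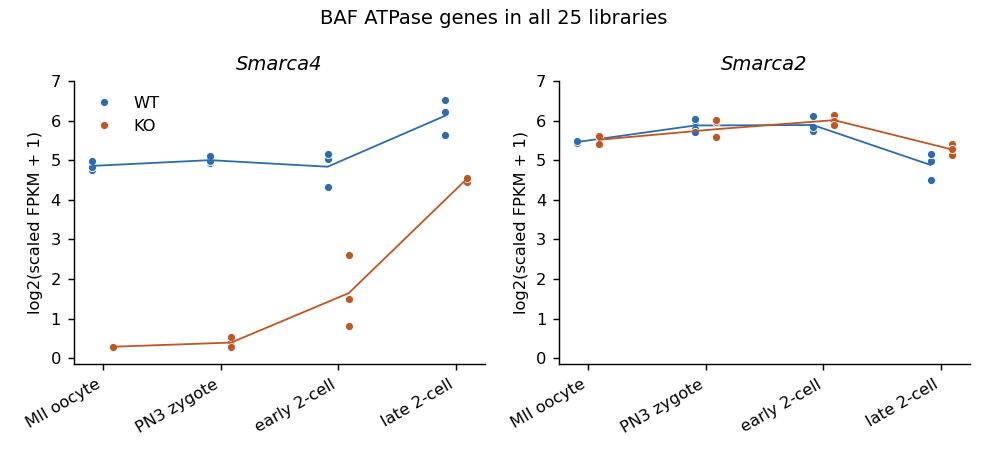
Smarca4 (left) and Smarca2 (right) in all 25 libraries as log2(scaled FPKM + 1), by stage; each point is a library, lines join group means, blue is wild type and orange is knockout. Smarca4 was 0.767 to 5.12 scaled FPKM in the knockout early 2-cell libraries and 18.98 to 34.9 in wild type, while the Smarca2 points of the genotypes overlapped.

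The other subunits of the BAF complexes gave no such difference. Smarca2, the alternative ATPase, was 68.0, 52.2 and 55.8 in wild type and 69.3, 63.0 and 58.7 in the knockout, a difference of 0.12 (SE 0.19). Of 28 BAF genes 25 were tested, 1 (Smarca4 itself) passed the test, and none of the other 24 had groups that did not overlap. Of all tested genes 10.3% had such groups, in either direction. A list of 24 is short for such a share, so the count is not read as a result about the subunits. The median difference was 0.07 over the 10 core subunits and 0.14 over the 13 subunits that define a BAF subtype, beside a median of 0.03 over all 9500 genes. Arid1a, the DNA-binding subunit of canonical BAF, was 163, 102 and 108 in wild type and 143, 154 and 108 in the knockout. Smarcd1, a core subunit, was 0.183 to 2.15 in these libraries. Across 38 tested genes on a list of other remodelers (ISWI, CHD, INO80 and NuRD) the median was -0.02. Mta2, a NuRD subunit, had the smallest p on that list, which does not hold the INO80 subunit Nfrkb described further on, at 4.80, 5.93 and 4.66 in wild type and 2.42, 1.35 and 3.80 in the knockout (difference -0.85, SE 0.25, adjusted p = 0.596).

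Over all genes, 1 of 9500 was called lower (0.0105%) and 0 were called higher (0.0%) at an adjusted p under 0.05. With limma, 325 genes (3.42%) were higher and 314 (3.31%) lower at a p under 0.05 before adjustment. The mean differed by at least 1 on the log2 scale for 214 genes upward (2.25%) and 97 downward (1.02%), and it was lower in the knockout for 45.9% of genes and higher for 54.1%. The median difference over all tested genes was 0.03, and -0.012 without wild type replicate 2. All 3 knockout libraries lay above all 3 wild type libraries for 481 genes (5.06%) and below them for 498 (5.24%). With 3 libraries against 3, an exact permutation test of a single gene cannot go below a p of 0.10. When the spread was pooled over all 25 libraries of the series, in which MII and PN3 replicates are much closer to each other, 99 genes were called higher (1.04%) and 117 lower (1.23%). All genes named in the following paragraphs except Smarca4 failed the main test, so their values are given without a claim of change.

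**Figure D2:**
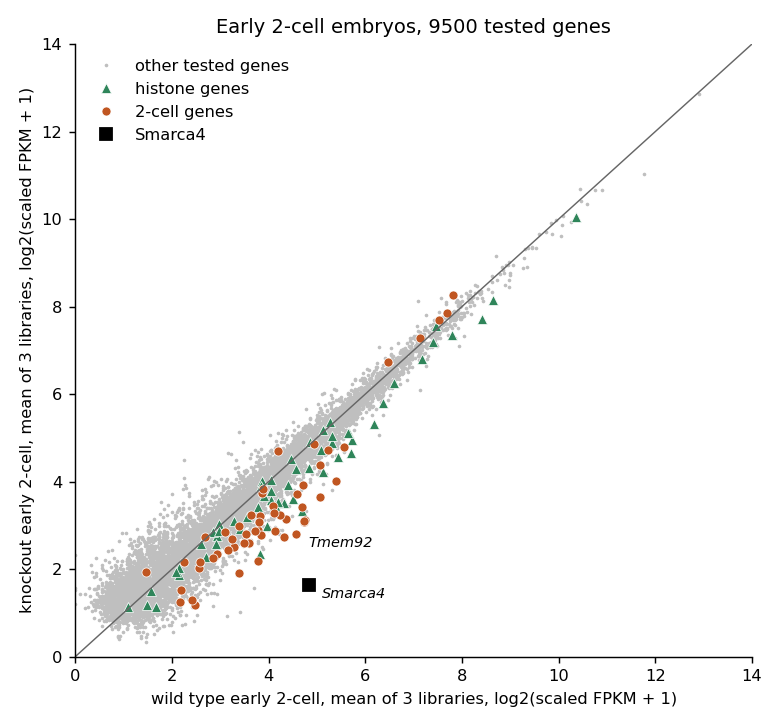
Mean log2(scaled FPKM + 1) of each of the 9500 tested genes in 3 wild type (x axis) and 3 knockout (y axis) early 2-cell libraries; the line marks equal levels, orange circles are 2-cell genes, green triangles are histone genes and the black square is Smarca4. Smarca4 lies farthest below the line, and 46 of 54 tested 2-cell genes and 50 of 59 tested histone genes lie below it.

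Genes of the transient 2-cell programme had lower knockout values as a group, although none passed the test. Of 64 such genes in the files 54 were tested, 46 had a lower mean in the knockout, and 17 (31.5%) had all 3 knockout libraries below all 3 wild type libraries, where 5.24% of all tested genes did. For 0 of 54 did all knockout libraries lie above, where 5.06% of all tested genes did. The median difference was -0.74. The summed level of all 64 genes overlapped, at 1377, 1505 and 2164 in wild type and 1287, 1422 and 1658 in the knockout. The list mean of log2(scaled FPKM + 1) was 3.82, 3.93 and 4.53 in wild type replicates 1, 2 and 3 and 3.07, 3.25 and 3.84 in the knockout. Both replicates 3 were the highest of their genotype, for 44 of the 54 genes in wild type and 40 of the 54 in the knockout, and knockout replicate 3 overlapped wild type replicate 1. The median was -0.84 without wild type replicate 2 and -0.94 without knockout replicate 3. The count below was 24 (44.4%) without wild type replicate 2, where 10.8% of all tested genes lay below, and 32 (59.3%) without knockout replicate 3, where 11.6% did. In bulk samples, fewer cells that express a gene and less RNA per cell cannot be told apart.

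The promoters of 4 of these genes are shown to set 2 near-identical members of the Zscan4 family beside members of other families. The sequences are RefSeq windows (GRCm38.p6), each from 250 bases before to 50 bases after the annotated start of the gene on its own strand, 5′ to 3′. Capitals mark 2 motifs searched on both strands: TAATCC, a core recognised by paired-like homeobox factors of the OTX and OBOX type, and CCAAT, the box bound by NF-Y.
Zscan4c (chr7:11005495-11005794, + strand): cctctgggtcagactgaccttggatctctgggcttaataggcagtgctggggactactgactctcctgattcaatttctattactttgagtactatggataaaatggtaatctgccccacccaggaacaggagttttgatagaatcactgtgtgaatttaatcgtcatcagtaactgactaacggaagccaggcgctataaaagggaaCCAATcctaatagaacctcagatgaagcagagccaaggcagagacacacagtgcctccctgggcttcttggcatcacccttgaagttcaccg
Zscan4d (chr7:11166099-11166398, - strand): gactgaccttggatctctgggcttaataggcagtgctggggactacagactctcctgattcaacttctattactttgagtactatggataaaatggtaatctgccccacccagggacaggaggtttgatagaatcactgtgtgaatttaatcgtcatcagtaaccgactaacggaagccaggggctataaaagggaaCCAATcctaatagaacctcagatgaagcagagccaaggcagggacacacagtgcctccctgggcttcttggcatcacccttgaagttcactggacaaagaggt
Tdpoz1 (chr3:93676234-93676533, - strand): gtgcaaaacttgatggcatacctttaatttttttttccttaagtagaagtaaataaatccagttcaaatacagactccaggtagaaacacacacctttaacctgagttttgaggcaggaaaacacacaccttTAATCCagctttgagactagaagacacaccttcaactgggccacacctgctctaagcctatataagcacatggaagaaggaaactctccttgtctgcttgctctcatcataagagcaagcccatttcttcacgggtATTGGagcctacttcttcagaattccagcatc
Zfp352 (chr4:90218570-90218869, + strand): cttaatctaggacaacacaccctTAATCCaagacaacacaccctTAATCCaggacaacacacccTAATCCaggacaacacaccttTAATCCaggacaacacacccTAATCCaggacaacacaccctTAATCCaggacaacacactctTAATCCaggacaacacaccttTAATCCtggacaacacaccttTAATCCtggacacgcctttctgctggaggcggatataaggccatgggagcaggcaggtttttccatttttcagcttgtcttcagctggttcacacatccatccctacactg

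The windows of Zscan4c and Zscan4d were identical at 281 of 289 positions once shifted by 11 bases, and each held 1 CCAAT and no TAATCC. Among the 4 Zscan4 windows in the RefSeq table the best ungapped identity was between 95.3% and 99.3%. The Zfp352 window held 9 copies of TAATCC in a tandem repeat and no CCAAT, and the Tdpoz1 window held 1 of each. RefSeq windows were found for 19 of the 54 tested 2-cell genes. TAATCC was present in 6 of the 19 (31.6%) and in 5.70% of the windows of 7187 tested genes, and CCAAT in 13 of the 19 (68.4%) and in 40.7% of the 7187. Several of the 19 are near-identical copies, so they are not independent, and a match is a string of letters and not a site in use.

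The Zscan4 family (zinc finger proteins with a SCAN domain, which mark the 2-cell state) had the lowest median of the 2-cell families, at -1.59 over 5 tested genes. Their summed level was 112, 127 and 217 scaled FPKM in wild type replicates 1, 2 and 3 and 32.4, 33.9 and 98.9 in knockout replicates 1, 2 and 3. The sums did not overlap, but knockout replicate 3 came close to wild type replicate 1. Zscan4c (chromosome 7, 11005745 to 11010547) was 23.6, 20.4 and 34.0 in wild type and 6.12, 3.68 and 17.1 in the knockout, a difference of -1.65 (SE 0.55, adjusted p = 0.646). Zscan4a was 13.5, 27.9 and 45.1 against 4.71, 7.91 and 12.3, and Zscan4b 16.4, 13.1 and 31.8 against 3.02, 5.12 and 10.9, both without overlap. For Zscan4d (32.7, 41.1 and 52.4 against 11.7, 8.82 and 32.7) and Zscan4f (25.9, 24.3 and 54.1 against 6.89, 8.34 and 25.8) knockout replicate 3 reached into the wild type range. The family median was -1.96 without knockout replicate 3. Fragments of such copies can be split between them by the authors' counting, so single members are less certain than the sum.

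Members of the eIF1A-like family, intronless relatives of a translation initiation factor, came next, with a median of -1.27 over 7 tested genes. Gm4850 (chromosome 1, 31264847 to 31268061, annotated as a transcribed pseudogene) was placed with this family in the list used, and its kinship to the other members was not checked. It had the smallest p of the whole 2-cell list. It was 5.13, 12.8 and 12.8 in wild type and 2.26, 2.88 and 3.20 in the knockout, a difference of -1.48 (SE 0.30, adjusted p = 0.376). Without wild type replicate 1 this gene passed the test, at -1.87 and an adjusted p of 0.0379. Gm2022, at 10.7, 15.3 and 12.6 against 3.03, 2.17 and 6.43, Gm2016, at 12.7, 18.3 and 19.7 against 5.18, 4.40 and 10.6, and Gm8300, at 15.8, 17.1 and 27.3 against 4.41, 8.70 and 12.2, were also without overlap. Gm4027 overlapped, with 3.91, 13.4 and 15.1 in wild type and 3.36, 4.89 and 18.02 in the knockout. The summed level of the family was 83.1, 129 and 150 in wild type and 30.7, 42.3 and 93.2 in the knockout. In that sum knockout replicate 3 lay above wild type replicate 1.

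Tmem92, a membrane protein gene often used as a 2-cell marker, had the largest difference of the non-overlapping genes of the 2-cell list. It was 20.2, 20.3 and 28.4 in wild type and 5.65, 4.40 and 8.52 in the knockout (difference -1.76, SE 0.45, adjusted p = 0.447). Ubtfl1, an HMG-box gene active before implantation, was 7.07, 9.34 and 10.3 against 4.86, 3.65 and 5.76. Zfp352, the gene with the repeated TAATCC window above, was 23.5, 27.1 and 54.2 against 19.4, 12.9 and 31.1, and its groups overlapped. Among the Tdpoz genes, which encode TRAF and POZ domain proteins, all 8 tested had a lower mean (median -0.79), and Tdpoz1 was 3.19, 4.13 and 6.03 against 1.47, 1.03 and 1.96. The sum over the 9 Tdpoz genes in the files overlapped, at 35.8, 56.4 and 68.7 against 18.1, 24.3 and 40.7. The 5 Usp17l deubiquitinase genes had a median of -0.76, with 1 of them, Usp17lc, free of overlap at 37.3, 50.1 and 52.4 against 20.2, 30.0 and 31.8. Their summed level was 107, 98.4 and 147 against 52.2, 68.5 and 83.7, without overlap. Of 27 Pramel and Pramef genes 18 were tested, 13 had a lower mean and 4 (22.2%, against 5.24% of all tested genes) lay below without overlap. Their median was -0.50, and -0.84 without wild type replicate 2. The sum over the 27 genes overlapped, at 652, 721 and 1123 in wild type and 809, 875 and 931 in the knockout. In that sum every knockout library lay above wild type replicates 1 and 2.

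Dux, the homeobox activator of many 2-cell genes, did not separate the genotypes. It was 13.1, 10.9 and 17.7 in wild type and 9.69, 12.7 and 15.021 in the knockout, and the difference of -0.14 was smaller than its SE of 0.29. Its activator Dppa2 was 15.7, 10.7 and 31.2 against 27.9, 22.2 and 25.3, while Dppa4 was 6.71, 9.43 and 4.60 against 4.36, 3.91 and 3.97. The 6 tested Obox homeobox genes all had a lower mean, with a median of -0.18, and for none did the groups separate. That median was -0.011 without wild type replicate 3, -0.28 without wild type replicate 2, -0.28 without knockout replicate 3 and -0.11 without knockout replicate 1. The abundant Obox1 was 457, 454 and 632 in wild type and 396, 414 and 491 in the knockout. Obox6, a low member at this stage, was 6.91, 4.55 and 3.20 against 3.31, 0.715 and 2.51.

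**Figure D3:**
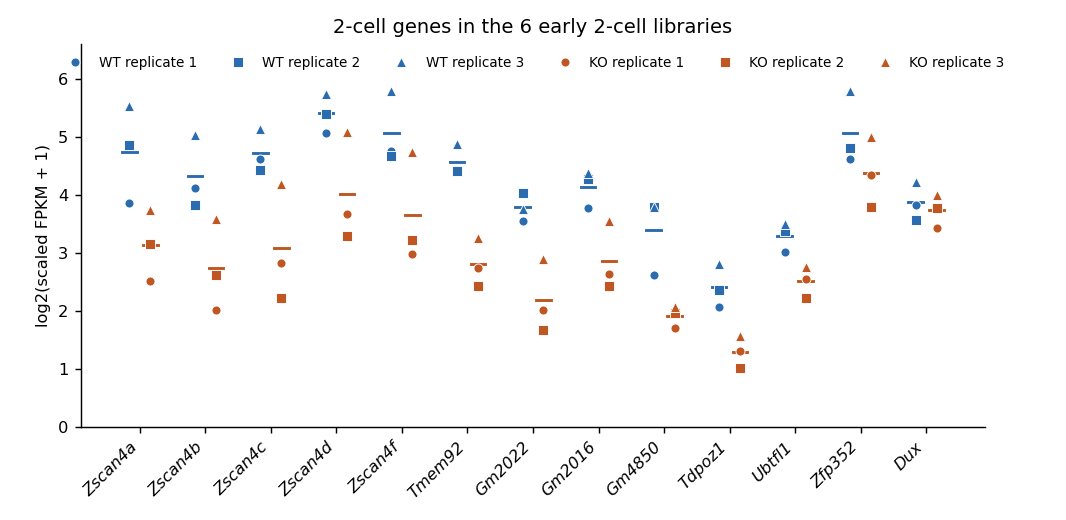
Levels of 13 genes of the 2-cell programme as log2(scaled FPKM + 1) in the 6 early 2-cell libraries; blue is wild type, orange is knockout, marker shapes give the replicate and bars the group mean. Tmem92, Gm4850, Tdpoz1 and Ubtfl1 show no overlap, whereas Dux and Zfp352 do, and the knockout triangle (replicate 3) lies above the other knockout points for most genes.

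The 2-cell genes can be split by their level before the 2-cell stage, and the difference between the resulting sets was not tested. Of the 54, 36 were under 1 scaled FPKM in all 13 MII and PN3 libraries: all 36 had a lower mean in the knockout at the early 2-cell stage, 14 (38.9%) without overlap, and their median was -0.87. The other 18 already reached 1 before that: 10 of them had a lower mean, 3 (16.7%) lay below without overlap, and their median was -0.07. Over all tested genes 5.24% lay below. Sp110 and the Pramef genes C87499 and Gm13084 are examples of the second kind, and C87499 was 150, 164 and 250 in wild type and 198, 201 and 219 in the knockout.

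The same split was made over all tested genes. Of the 9500 tested genes, 428 were under 1 in all 13 MII and PN3 libraries, and 70 of these (16.4%) had all knockout libraries below all wild type libraries, against 6 (1.40%) above. Their median was -0.29, and -0.40 without wild type replicate 2 or -0.36 without knockout replicate 3. Leaving out the 2-cell genes, 392 such genes remained, with a median of -0.21, and 56 (14.3%) lay below and 6 (1.53%) above, beside 5.24% and 5.06% of all tested genes. Genes with a mean of 50 or more at MII and PN3 gave a median of 0.04 over 1030 genes, with 62 (6.02%) above and 30 (2.91%) below. Between those, 5062 genes with a mean of 5 to 50 had a median of 0.03 and 2980 genes that reached 1 with a mean under 5 had a median of 0.05.

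Levels in the zygotes and late 2-cell embryos, none of which enter the early 2-cell difference, showed a like contrast. The zygote libraries also served in the split above, where 70 of 428 genes lay below, so both views share genes. Among the 498 genes with all knockout libraries below wild type at the early 2-cell stage, 45.8% were at least 1 log2 unit higher in wild type late 2-cell embryos than in wild type zygotes. That share was 24.2% over all tested genes and 13.9% over the 481 genes with all knockout libraries above. Conversely, 36.4% of the 481 were at least 1 log2 unit lower in late 2-cell embryos than in zygotes, against 7.03% of the 498 and 20.7% of all tested genes. The knockout libraries of the same 2 stages gave 46.0%, 8.94% and 20.4% for the first of these shares, in the order below, above and all tested.

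The 14 genes of smallest p on the lower side after Smarca4, all without overlap, are given as examples. Each of the 14 had a higher wild type mean at the late 2-cell stage than at the early one, and each had a lower wild type mean at PN3. Both counts use the wild type early 2-cell values by which the genes were picked, which favours a lower PN3 mean. They have no share over all tested genes beside them and add no support. The differences of the 14 ran from -0.68 to -1.48, and all had an adjusted p of 0.376 by limma. Gm12789 (chromosome 4, 101986840 to 101990231) was listed at 0 in all 13 MII and PN3 libraries. At the early 2-cell stage it was 17.4, 16.6 and 18.8 in wild type and 8.51, 3.83 and 8.18 in the knockout, and in late 2-cell embryos its mean was 76.3 in wild type and 75.6 in the knockout. Gm15455, at 20.7, 11.7 and 14.5 against 7.59, 5.52 and 7.35, and Gm7102, at 14.7, 21.1 and 22.9 against 7.66, 6.53 and 10.3, had the same course. These predicted genes have no role that can be stated with certainty.

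Others of the 14 are widely used cell genes. Hipk1, a nuclear kinase, was 2.12, 5.30 and 3.65 in wild type and 1.05, 0.637 and 1.21 in the knockout. Dhx9, an RNA helicase, was 9.05, 12.0 and 9.42 against 5.59, 4.15 and 5.49. Dbr1, the enzyme that opens intron lariats, was 9.62, 10.1 and 6.78 against 3.78, 3.26 and 3.94. All wild type values of these 3 genes lay above all knockout values.
Ftl1, the ferritin light chain, was 43.8, 55.9 and 39.5 against 23.9, 25.4 and 30.3. Mpc1, a subunit of the mitochondrial pyruvate carrier, was 18.7, 19.3 and 18.1 against 11.5, 10.4 and 11.9. Exosc2, a cap subunit of the RNA exosome, was 5.00, 6.57 and 3.67 against 1.54, 1.35 and 2.56. Chka, a choline kinase of phospholipid synthesis, was 6.91, 5.77 and 3.96 against 1.79, 1.35 and 2.73, and 2810004N23Rik and Rbmx2 complete the set at differences of -0.88 and -0.996.

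In lists of growth and transcription genes, members without overlap lay on both sides and none passed the test. On the lower side, Ccne1, Polr1c, Nol11 and Gabpa also had higher wild type means at the late 2-cell stage. Ccne1, the cyclin of S-phase entry, was 12.4, 9.46 and 10.49 in wild type and 6.63, 3.59 and 5.88 in the knockout (difference -0.91, SE 0.21, adjusted p = 0.376), and its mean at the late 2-cell stage was 166 against 126. Polr1c, which RNA polymerases I and III have in common, was 3.19, 9.20 and 3.51 against 1.15, 1.499 and 2.21. Nol11, a nucleolar protein of ribosome assembly, was 2.48, 2.58 and 2.41 against 1.22, 0.348 and 1.58. Gabpa, an ETS factor, was 2.08, 1.57 and 3.42 against 1.56, 0.7505 and 1.09. On the higher side, Ccnd3, a D-type cyclin, was 3.87, 0 and 4.32 against 8.78, 7.06 and 4.91, with a difference of 1.39, and of 0.61 without wild type replicate 2. Gata3, a trophectoderm factor, was 1.29, 1.27 and 2.57 against 2.92, 3.24 and 3.17. Among the RNA polymerase I and ribosome biogenesis genes 8 (8.42%) lay above and 3 (3.16%) below, and among the cell cycle genes 4 (5.56%) and 2 (2.78%), beside 5.06% and 5.24% of all tested genes. The lists these genes come from stayed near the median of all genes: 0.01 over 72 cell cycle and replication genes, 0.09 over 95 genes of RNA polymerase I and ribosome biogenesis, and -0.05 over 27 preimplantation transcription factors.

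Replication-dependent histone genes, whose RNAs carry no poly(A) tail in most cells and are kept in total RNA libraries, also had lower knockout means. Of 65 in the files 59 were tested, and 50 had a lower mean. For 8 (13.6%) all knockout libraries lay below wild type, against 5.24% of all genes, and for 0 above, against 5.06%. The median was -0.36. The count below was 14 (23.7%) without wild type replicate 2, where 10.8% of all tested genes lay below. In that setting 2 (3.39%) lay above, where 8.5% of all tested genes did. The count below was 20 (33.9%) without knockout replicate 3, where 11.6% of all tested genes lay below. The genes for H2A held 6 of the 8, with a median of -0.67 over 17, whereas the medians for H2B, H3 and H4 were -0.28, -0.27 and -0.42. The H3 median was -0.41 without knockout replicate 3. The median of the 11 H4 genes was -0.03 without wild type replicate 2, and Hist1h4c was 235, 757 and 223 in wild type and 217, 199 and 214 in the knockout. For the 5 H1 genes the median was -0.17, and it was 0.11 without wild type replicate 2 and 0.21 without knockout replicate 3.
Hist1h2bf had the smallest p of the list, at 18.02, 12.5 and 13.999 in wild type and 9.28, 7.09 and 4.94 in the knockout (difference -0.99, SE 0.24, adjusted p = 0.447). Hist1h2ab was 25.2, 18.9 and 14.4 against 9.72, 10.8 and 10.8, and Hist1h2ag was 53.8, 80.4 and 30.4 against 28.2, 18.7 and 26.3. Histone genes are near-identical copies, so fragments can be split between them, and sums are the safer values. The summed H2A level was 642, 591 and 678 in wild type and 374, 301 and 573 in the knockout, without overlap. The sum over the 65 genes in the files overlapped, at 3686, 5578 and 3468 against 2980, 2752 and 3505. The sums for H1, H2B, H3 and H4 overlapped as well.

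**Figure D4:**
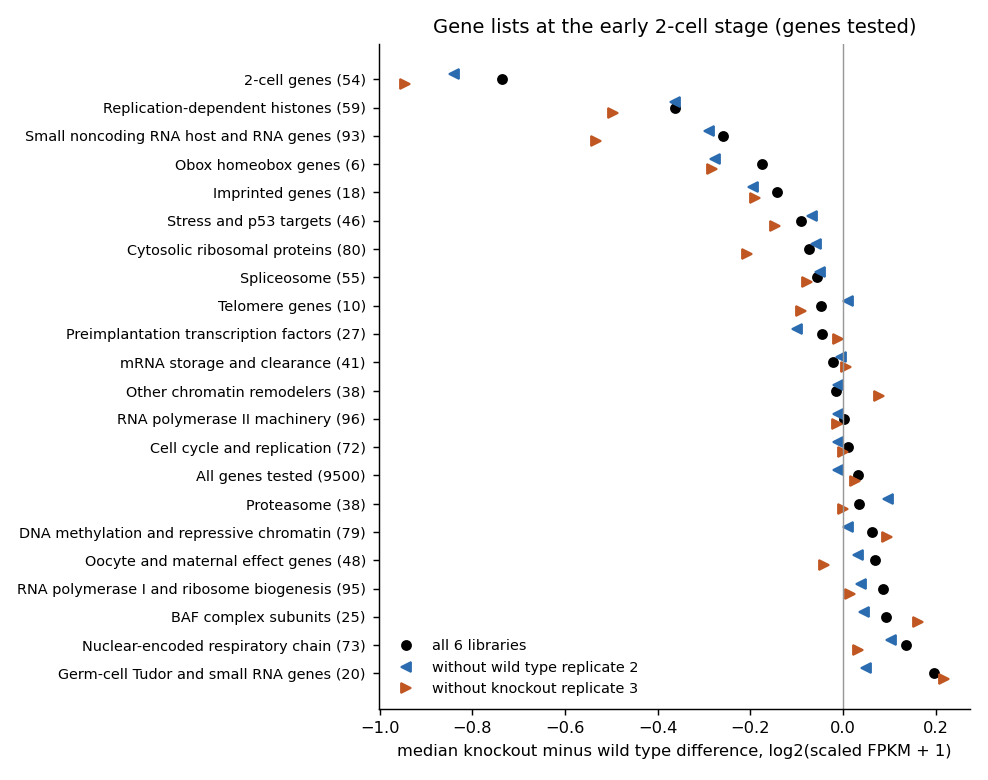
Median knockout minus wild type difference, in log2(scaled FPKM + 1), over the tested genes of each list (number in brackets), with all 6 libraries (black), without wild type replicate 2 (blue) and without knockout replicate 3 (orange). Marker lists are not plotted. Of the lists plotted, the 2-cell genes (-0.74) and the histone genes (-0.36) lie lowest under all 3 settings, except that the small noncoding RNA genes reach -0.53 without knockout replicate 3, and most other lists lie near the median of all genes (0.03).

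On the higher side, 129 of the 481 genes without overlap (26.8%) were listed at 0 in wild type replicate 2, where 13.2% of all tested genes were. Of the 86 genes (0.905% of those tested) with all knockout libraries above wild type and a difference of at least 1, 70 (81.4%) were listed at 0 in that library. On the lower side 51 genes (0.537%) differed by at least 1 without overlap. Of the 15 genes of smallest p on the higher side, 8 were at 0 in that library. Also, 8 of the 15 (1700047I17Rik2, Il1r2, Mfhas1, Phpt1, Gstk1, Fgl1, Sorcs3 and Dtnbp1) passed the filter through the knockout libraries alone and so had to separate, as had Ndufc2. 1700047I17Rik2 was listed at 0 in all 3 wild type libraries and was 4.78, 2.19 and 5.69 in the knockout, and Il1r2, a decoy receptor for interleukin 1, was listed at 0 in wild type and 2.12, 1.01 and 3.16 in the knockout. Il1r2 was 3.19 to 4.89 in the wild type oocytes and 1.09 to 1.37 in the wild type zygotes. Ndufc2, a subunit of respiratory complex I, was listed at 0 in wild type and 1.62, 1.52 and 2.59 in the knockout, after 15.9 and 16.3 on average in the oocytes of the 2 genotypes. Psmb4 (0.900, 0 and 2.43 against 5.14, 5.19 and 5.55), Dnajc15 (0.883, 0 and 3.003 against 3.89, 6.76 and 8.29) and Tma16 (0.772, 0 and 4.12 against 4.53, 6.73 and 7.28) also stood at 0 in wild type replicate 2. Without that library the difference of Psmb4 was 1.30 in place of 1.75, that of Dnajc15 1.36 in place of 1.85 and that of Tma16 1.23 in place of 1.76. The differences of 1700047I17Rik2 (2.32), Il1r2 (1.57) and Ndufc2 (1.52) were the same without it.

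Other genes without overlap on the higher side were above 0 in all 6 libraries. Nfrkb, a subunit of the INO80 remodeler, was 4.85, 4.98 and 10.1 in wild type and 12.3, 20.0 and 13.98 in the knockout (difference 1.14, SE 0.29, adjusted p = 0.447). Pdzk1, a scaffold protein with PDZ domains, was 13.8, 11.6 and 14.7 against 23.2, 25.2 and 29.5. Dnmt1, the maintenance DNA methyltransferase, was 64.4, 67.2 and 63.6 against 86.5, 114 and 83.8 (difference 0.52, SE 0.15, adjusted p = 0.586). In all 3 genes the knockout libraries lay above the wild type ones.
Dnmt1 is an abundant oocyte RNA, with a mean of 378 in wild type and 535 in knockout oocytes and of 40.7 and 44.5 in late 2-cell embryos. Cpeb1, which controls translation of stored RNA, was 11.4, 9.58 and 16.1 against 18.1, 18.8 and 22.0. Nlrp5, a member of the subcortical maternal complex, was 86.3, 84.7 and 80.9 against 96.5, 128 and 112. The oocyte and maternal effect list as a whole had a median of 0.07 over 48 tested genes, with 4 genes (8.33%) above and 0 below, where 5.06% and 5.24% of all tested genes were. Gdf9 (134, 175 and 119 against 132, 143 and 139) and Btg4 (1655, 1671 and 1882 against 1528, 1422 and 1980) overlapped.

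Some of these genes already had different values in the oocyte libraries of the 2 genotypes, where no test was made. Of the 481 genes with all knockout libraries above at the early 2-cell stage, 65.1% also had a higher knockout mean at MII and 68.6% at PN3, where 48.9% and 51.0% of all tested genes did, and 51.8% at the late 2-cell stage against 49.0%. Of the 498 below, 66.1% had a lower mean at MII, 65.7% at PN3 and 50.6% at the late 2-cell stage, where 50.3%, 48.9% and 50.9% of all tested genes did. The libraries of the other stages are separate from those of the early 2-cell stage.
Of the 481 genes above, 9 (1.87%) also lay above without overlap at the other 3 stages, where 47 of the 9500 tested genes (0.495%) did. Of the 498 below, 7 (1.41%) also lay below at the other 3, where 36 of the 9500 (0.379%) did. With 2 knockout libraries at MII, 21.6% of all tested genes lay above there and 21.9% below. Zmynd11, a reader of methylated histone H3.3, was 9.16, 6.89 and 7.79 in wild type and 13.2, 13.3 and 14.8 in the knockout at the early 2-cell stage, and its means were 6.54 and 9.60 at MII, 7.05 and 12.0 at PN3 and 8.48 and 15.6 at the late 2-cell stage. Cttnbp2, a cortactin-binding protein, was 1.56, 2.18 and 1.79 against 6.87, 6.73 and 3.37. Aldh1a2, which makes retinoic acid, was 13.9, 6.51 and 8.84 against 19.3, 19.6 and 18.9. Flt1, Ccdc62, Tspan33, Caln1 and Eri1 were also above.
Below at all 4 stages, beside Smarca4, were Dip2c, Sde2, Sh2d3c, Rnf4, Tmem57 and Ap1g1. Dip2c was 6.61, 8.98 and 6.50 in wild type and 3.74, 3.80 and 3.21 in the knockout, and its oocyte means were 5.66 and 2.77. Rnf4, a SUMO-targeted ubiquitin ligase, was 85.2, 95.1 and 89.6 against 64.3, 73.3 and 78.9. Mfhas1 passed the filter only through the knockout, and separated at MII and PN3 but not at the late 2-cell stage. It was 0.290, 0.439 and 0.342 in wild type and 1.99, 2.88 and 3.04 in the knockout early 2-cell libraries. By position, Dip2c (chromosome 13, 9276507 to 9668928) lies near Zmynd11 (chromosome 13, 9684836 to 9766014). Eri1 (chromosome 8, 35465265 to 35495533) lies near Mfhas1 (chromosome 8, 35587789 to 35679449). Strain and genotype cannot be told apart in such differences.

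**Figure D5:**
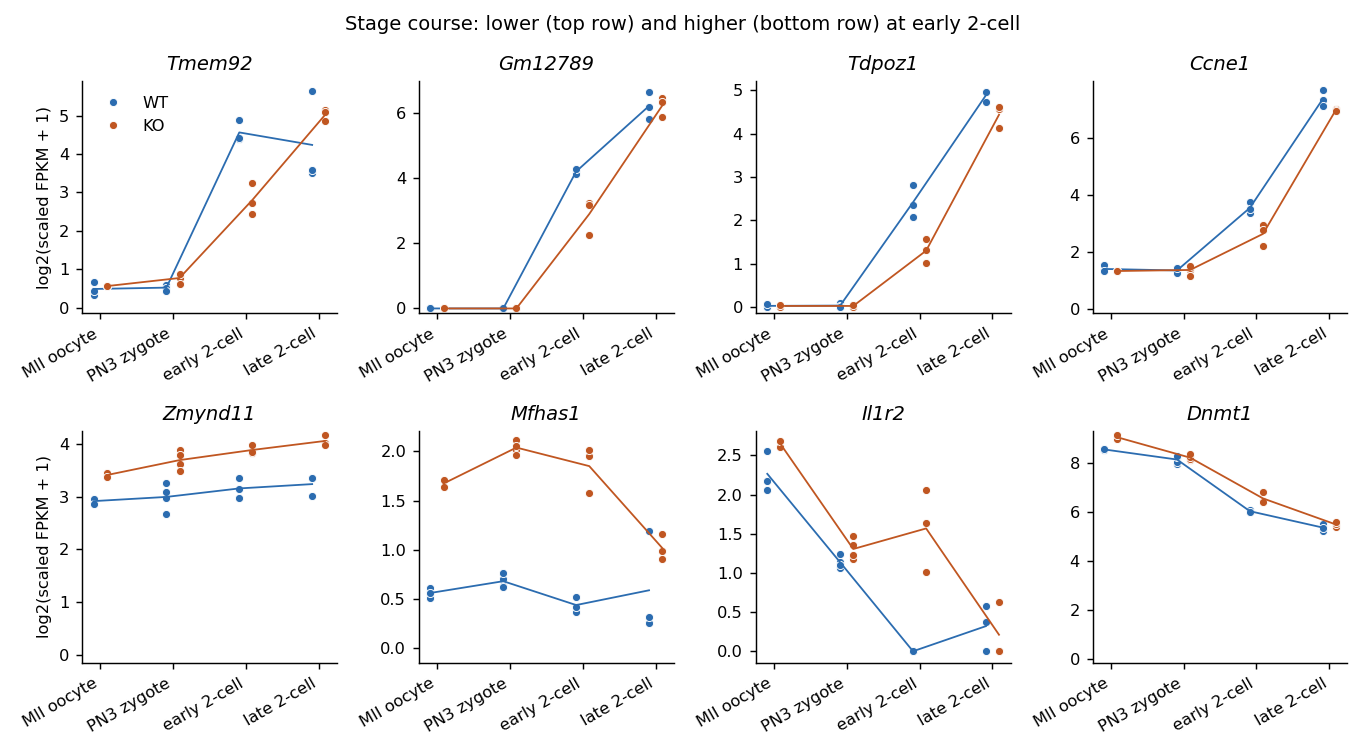
Levels of 8 genes in all 25 libraries as log2(scaled FPKM + 1), by stage; each point is a library, lines join group means, blue is wild type and orange is knockout. Tmem92, Gm12789, Tdpoz1 and Ccne1 (top row) are near their oocyte level in zygotes and lower in the knockout at the early 2-cell stage, and Zmynd11, Mfhas1, Il1r2 and Dnmt1 (bottom row) are higher in it, with Zmynd11 higher at all 4 stages.

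The knockout differences at the early and late 2-cell stages were compared as an interaction term of the same fit. It was called for 0 of 9500 genes (0.0%) by limma at an adjusted p under 0.05, and 1054 (11.1%) had an unadjusted p under 0.05. The call depended on how the spread was estimated: 616 genes were called when it was pooled over all 25 libraries and 1200 when libraries were weighted by their own spread. Among the 54 tested 2-cell genes 27 had an unadjusted p under 0.05, and for 26 of them the difference at the early stage was below that at the late stage. At the late stage 45 of the 54 (83.3%) had a higher knockout mean, where 49.0% of all tested genes did, with a median of 0.47. Without overlap, 7 (12.96%) lay above and 4 (7.41%) below, near the 10.1% and 11.4% of all tested genes. Tmem92 was 10.3, 10.9 and 48.8 in wild type and 34.4, 27.9 and 32.9 in the knockout at the late stage, and its interaction was -2.55 (SE 0.63, adjusted p = 0.440). Wild type late 2-cell libraries thus spread widely for this gene, and wild type replicate 3 lay above all knockout libraries while replicates 1 and 2 lay below. Zscan4c gave the same picture, at 2.03, 4.93 and 15.6 in wild type and 10.1, 8.50 and 8.05 in the knockout.

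Markers of the embryo and of other cells were read in the same libraries. The oocyte identity list had all 8 genes tested, with a median of 0.11, and of -0.006 without knockout replicate 3. The 2-cell identity list also had all 8 tested, with a median of -0.72, and of -1.13 without knockout replicate 3. Of 17 cumulus and granulosa markers 1 was tested, of 16 sperm and testis markers 2, and of 15 blood and immune markers 1, and 4, 3 and 8 of them were at 0 in all 6 libraries. The summed level was 1.30 to 7.75 in wild type and 5.12 to 7.96 in the knockout for cumulus and granulosa, and 0.0143 to 3.40 and 1.11 to 3.07 for blood and immune. The sperm and testis sum, 91.9 to 122 in wild type and 102 to 128 in the knockout, was nearly all Odf2 (85.6 to 118 and 99.0 to 121). Prm2, a sperm protamine, was 1.19, 2.91 and 2.92 in wild type and 1.15, 14.8 and 2.07 in the knockout, and Tnp1 and Tnp2 were 1.94 and 1.76 in knockout replicate 2 and at 0 in the other 5 libraries. The part of such RNA in the differences was not tested.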

How the data were processed

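RNA sequencing of 25 libraries was analysed, of which 6 are early 2-cell embryos. The authors deposited 1 FPKM value per gene symbol and library. Per the submitters' processing notes, the tools were HISAT2, HTSeq, StringTie and Trim Galore 0.4.5 and the builds GRCm38 and mm10. Which of them produced the FPKM, and any use of strand in it, is not stated there. Depth is unknown, and values are relative within a library.

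Each library was divided by a size factor, the median over 6492 genes (FPKM 1 or more in each of the 25) of its ratio to their geometric mean, and log2(scaled FPKM + 1) was fitted with limma 3.58.1 (R 4.3.3; variance trend, robust prior) to the 12 early and late 2-cell libraries, with 1 mean per group and 8 residual degrees of freedom. P-values were adjusted by Benjamini-Hochberg over 9500 genes, with calls under 0.05. The fit was tested on simulated data. Differences carry their model SE, and lists are described by counts and medians. Figures used matplotlib 3.10.9. Promoter windows and gene positions are RefSeq (GRCm38.p6). Per-library values follow replicate numbers in the labels.

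The members, the gene lists and the tests were chosen with earlier results of these data known. Named genes were a list of watch genes, the genes called or, failing that, the 15 in each direction of smallest unadjusted p without overlap, and in each list the called members or the 3 of smallest p. Genes named outside this rule (other family members, the genes that differ at all 4 stages, and Usp17lc, C87499, Gm13084, Sp110, Tnp1 and Tnp2) were chosen after their values were seen. Alternatives covered the scaling, pseudocounts of 0.1 and 5, the filter, the libraries in the fit, library weights, a replicate block and leaving libraries out. Counts of non-overlapping genes without wild type replicate 2 or knockout replicate 3 were added after seeing the data. One gene among those that differ at all 4 stages is not reported here by name.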

Additional observations from a re-analysis of the deposited data

How the results depend on the processing

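Smarca4 was lower under every setting tried, with differences of -2.15 to -3.93. Its adjusted p was 0.0551 with a pseudocount of 0.1, 0.0694 without the filter on low values, 0.467 with the 6 early 2-cell libraries alone and 0.166 with the replicate block, so these also lost the call. The count of genes called was 1. It was 2 with values rescaled to TPM (1 higher, 1700047I17Rik2), 0 without the filter on low values, 0 with the 6 early 2-cell libraries alone and 216 with all 25 libraries (99 higher, 117 lower). With a pseudocount of 0.1 it was 1 higher and 0 lower. Leaving out single libraries gave 0 to 2 calls (0 to 1 higher and 0 to 1 lower). With the replicate block 0 genes were called. Same-numbered libraries deviated together at correlations of 0.06, 0.09 and 0.18, against -0.14 to 0.01 for other pairs of wild type and knockout. All 6 correlated best with their own number. Whether equal numbers stand for a shared batch is not stated and was not tested, and the main fit does not use the number. The early and late effects differed for 0 genes, and for 616 with all 25 libraries and 1200 with library weights, all at an adjusted p under 0.05.

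The histone median was -0.54 without wild type replicate 2 and knockout replicate 3 together and -0.62 without both libraries numbered 3. Added after seeing the data, the non-overlapping counts over all genes were 1027 below and 808 above without wild type replicate 2, 1104 and 1028 without knockout replicate 3, and 2031 and 1597 without both. As shares of all tested genes these were 10.8%, 11.6% and 21.4% below and 8.5%, 10.8% and 16.8% above. The 2-cell genes gave 24, 32 and 38 of 54 below in the same order (44.4%, 59.3% and 70.4%), with 0 above. The histone genes gave 14, 20 and 32 of 59 below (23.7%, 33.9% and 54.2%) and 2, 0 and 3 above (3.4%, 0.0% and 5.1%). The causes of these shifts were not tested, beyond fewer libraries overlapping less often.

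The direction of the difference turned for 11 named genes. Leaving out single libraries gave -0.29 to 0.0377 for Dux, -0.25 to 0.0675 for Nr5a2, -0.25 to 0.0144 for Pou5f1, -0.13 to 0.0403 for Yap1, -0.15 to 0.13 for Gdf9, -0.23 to 0.00585 for Btg4, -0.16 to 0.49 for Cyp19a1, -0.33 to 1.11 for Prm2 and -0.22 to 0.45 for Cd68. With FPKM as deposited, the difference was 0.0138 for Yap1 and 0.0218 for Gdf9. With library weights, the difference was 0.0135 for Yap1, 0.0810 for Gdf9, -0.0891 for Cyp19a1 and -0.25 for Cd68. Without wild type replicate 2 and knockout replicate 3 together, the difference was 0.0530 for Yap1, 0.12 for Gdf9, -0.0170 for Pot1a, -0.0195 for Snrpn, -0.23 for Cyp19a1 and -0.49 for Cd68. With values rescaled to TPM, the difference was 0.00813 for Gdf9.

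Of 1955 recomputed differences of 109 named genes, 1860 kept their direction and side of the threshold, 26 reversed, 8 (all of Smarca4) lost the call and 61 gained it, 58 of them with all 25 libraries. The unknown depth limits what can be said of genes near an FPKM of 1, and of the zeros in wild type replicate 2.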
